A study of Mus musculus with 2 samples.

Results

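The genes described here encode the clotting factors of blood plasma, the proteins that limit clotting and the proteins that dissolve clots. They were 38 genes chosen by symbol, and all 38 were found among the 37146 genes of the deposited tables. The series compared livers of CD-1 mice, an outbred laboratory strain, after oral dosing with titanium dioxide nanoparticles (the NP group) or an equal volume of phosphate-buffered saline (the Control group). NP mice received 50 mg per kg body weight each day of a suspension dispersed by ultrasound for 30 min. The labels do not state the age or sex of the mice, how long they were dosed or how many entered a library. Each group was 1 RNA-seq library of whole liver, so no difference has a replicate check and no test or p-value could be had. The statements describe these 2 libraries and not the treatment.

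Most clotting factors are made by hepatocytes and secreted. Clotting begins when tissue factor meets factor VII, passes through factors IX and X to thrombin, and ends when thrombin cuts fibrinogen into fibrin. Factors II, VII, IX and X and proteins C, S and Z need vitamin K, which is used to modify their glutamate residues so that they bind calcium. The contact system (factors XI and XII, prekallikrein and kininogen) can start the cascade on charged surfaces, and plasmin, made from plasminogen, digests fibrin. Fibrinogen is also an acute phase protein, whose genes are induced in liver by interleukin-6 through the transcription factor STAT3. Thrombomodulin, the protein C receptor, tissue factor pathway inhibitor, factor VIII and von Willebrand factor are made largely by endothelial cells.

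In pairs of values the Control level comes first. Levels are FPKM (read fragments relative to row length and library size), summed over all rows of a gene, with the 95% interval of Cufflinks. Such an interval measures uncertainty inside 1 library and says nothing of variation from mouse to mouse. Of the 38 genes, 30 passed a filter of at least 1 FPKM averaged over both libraries, and 8 did not. Counts use log2((NP + 1)/(Control + 1)), which shrinks the differences of low genes, while ratios of single genes are of plain FPKM. Coverage per unit of FPKM was 1.28 times higher in NP than in Control, and interval half-widths of the 21 genes at 50 FPKM or more had a median of 5.16% in Control and 4.96% in NP.

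The levels of the liver-made genes were close in both libraries and mostly somewhat higher in NP. Of the 30 genes, 0 were at least 1.5-fold higher and 1, Tfpi, was at least 1.5-fold lower in NP, against a background of 3.60% higher and 5.33% lower, together 8.92%, among all 10533 genes kept. At 2-fold 0 of the 30 differed, against 3.02% of all genes kept. The NP value lay above the Control value for 22 of the 30, against 45.6% of all genes kept. Intervals were separate with NP higher for 11 of the 30 and with NP lower for 2, against 7.73% and 9.58% of all genes kept. Narrow intervals of abundant genes separate more easily, so the same counts were taken at 50 FPKM or more, a limit set after the values were seen. There, 18 of 21 genes were higher in NP, against 55.4% of the 1368 genes kept at that level. Intervals were separate with NP higher for 10 of the 21 and with NP lower for 1, against 19.2% and 14.9%. None of the 21 was 1.5-fold higher or lower, against 3.14% and 2.92%. Of the 9 genes at 1 to 50 FPKM, 4 were higher in NP, against 44.2% of the 9165 genes kept under 50 FPKM. Among those 9, Hgfac was separate with NP higher and Tfpi with NP lower, against 6.01% and 8.78%, and 0 were 1.5-fold higher and 1 lower, against 3.67% and 5.68%. The median log2 ratio was 0.11 over the 30 genes and -0.025 over all genes kept. For the 21 abundant genes it was 0.12, against 0.026 for all genes at that level. Markers of hepatocytes lay the same way: 7 of 8 were higher in NP, against 55.4% of genes kept at 50 FPKM or more. The exception was Apoa2, an apolipoprotein gene, at 14204 against 12904 FPKM. Intervals were separate with NP higher for 5 of the 8 and with NP lower for 1, against 19.2% and 14.9%. The summed level of the list went from 50758 to 61403 FPKM, mostly through Alb, the albumin gene, at 21660 against 30741 FPKM. The part of hepatocyte RNA share in the coagulation values was not tested.

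**Figure D1:**
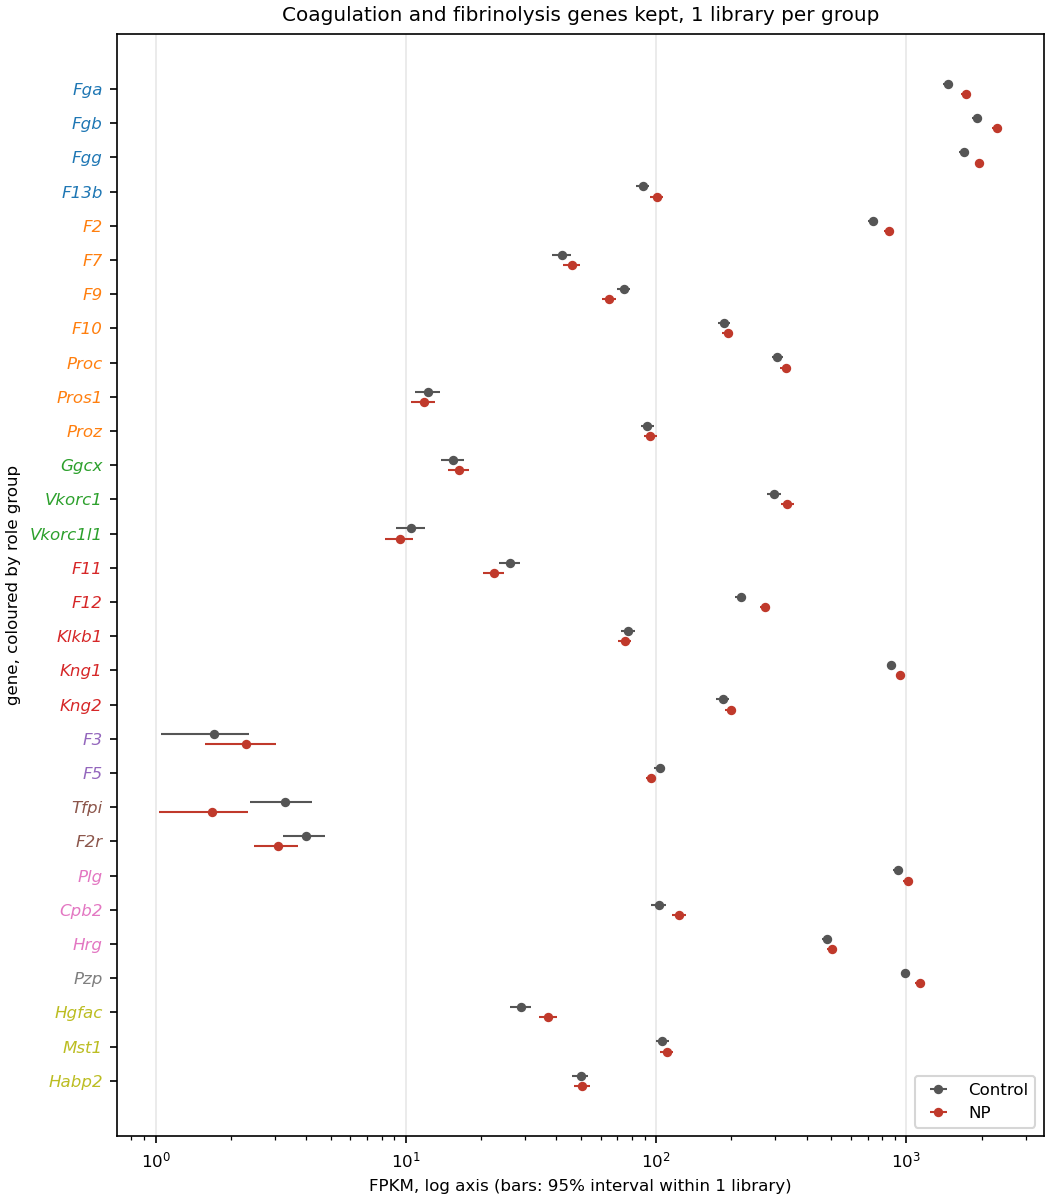
FPKM of the 30 genes kept in Control (grey) and NP (red) on a log axis, with the 95% interval within each library as bars and gene names coloured by role group. Fibrinogen genes lie near the top of the range and Tfpi, F2r and F3 under 5 FPKM, and points of the same gene lie close together.

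Fibrinogen, the soluble protein that becomes fibrin, is built of pairs of 3 chains, and the genes of all 3 were higher in NP. Fga, for the alpha chain, was at 1462 FPKM (interval 1399 to 1525) in Control against 1729 (1655 to 1802) in NP, a ratio of 1.18. Fgb, for the beta chain, was at 1919 (1837 to 2002) against 2307 (2209 to 2405) FPKM, a ratio of 1.20. Fgg, for the gamma chain, was at 1696 (1623 to 1770) against 1962 (1885 to 2038) FPKM, a ratio of 1.16. In each of the 3 the intervals did not overlap, while 19.2% of genes kept at 50 FPKM or more were separate with NP higher. Summed over rows, the chain genes kept nearly the same proportions. Fgb stood at 1.31 times Fga in Control and 1.33 times in NP, and Fgg at 1.16 and 1.13 times Fga. For Fgg this includes a row listed at 0 in Control, and its main row alone had a ratio of 1.03 with overlapping intervals. Together they held 45.7% of the summed FPKM of the 38 genes in Control and 47.4% in NP. F13b, for the carrier subunit of factor XIII, which cross-links fibrin, was at 88.5 (83.1 to 94.0) against 100.5 (94.7 to 106) FPKM, also without overlap. The median log2 ratio of this group of 4 was 0.23, against 0.026 for all genes kept at 50 FPKM or more. All 4 stayed within 1.5-fold, while 3.14% of the genes at that level were at least 1.5-fold higher and 2.92% lower.

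The fibrinogen genes lie next to each other on chromosome 3 of build mm9, Fgg from 82811781 to 82818975, Fga from 82830075 to 82838036 and Fgb from 82846169 to 82853725, with no other gene kept between them. Since the genes lay close together and had similar ratios of summed FPKM, their promoters are shown. They are from RefSeq on build GRCm38.p6, from 250 bases before to 50 after the start site. Fga is on the plus strand of chromosome 3 (83025903 to 83026202), Fgb on the minus strand (83049814 to 83050113) and Fgg on the plus strand (83007474 to 83007773). Capitals mark the motifs searched on both strands, which were CTGGGA, the core of the interleukin-6 response element bound by STAT3, and TTGCNNAA, a form of the C/EBP site.
Fga: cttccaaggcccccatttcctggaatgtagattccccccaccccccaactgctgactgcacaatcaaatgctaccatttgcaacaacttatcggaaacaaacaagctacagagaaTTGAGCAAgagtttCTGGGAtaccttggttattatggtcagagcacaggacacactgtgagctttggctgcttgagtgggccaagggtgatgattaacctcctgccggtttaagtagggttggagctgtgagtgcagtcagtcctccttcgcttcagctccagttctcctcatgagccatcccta
Fgb: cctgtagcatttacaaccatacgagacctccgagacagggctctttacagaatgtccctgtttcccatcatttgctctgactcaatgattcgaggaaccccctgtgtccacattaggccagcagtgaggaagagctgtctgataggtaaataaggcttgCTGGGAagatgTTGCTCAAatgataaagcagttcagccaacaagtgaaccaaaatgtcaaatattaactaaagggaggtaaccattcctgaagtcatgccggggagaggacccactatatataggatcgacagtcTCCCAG
Fgg: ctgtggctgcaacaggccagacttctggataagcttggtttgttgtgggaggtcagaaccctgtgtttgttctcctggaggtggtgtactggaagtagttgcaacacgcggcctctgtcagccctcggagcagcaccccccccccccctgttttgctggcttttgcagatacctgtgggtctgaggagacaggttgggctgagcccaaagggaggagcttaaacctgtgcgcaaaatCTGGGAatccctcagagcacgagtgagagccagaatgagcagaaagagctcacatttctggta
All 3 windows held CTGGGA, which was present in 31.5% of the promoters of 27025 genes. It began 121 bases before the RefSeq start in Fga, 91 before it in Fgb and 13 before it in Fgg. Fgb held it once more, on the other strand, in the last 6 bases of its window. RefSeq starts need not be the starts of the deposited rows, so these distances hold for RefSeq alone. The main Fgg transcript, for one, has 1564 nt in the deposited rows and 1695 nt in GENCODE M21. TTGCNNAA, found in 10.8% of promoters, stood on the reverse strand in Fga and on the forward strand in Fgb. No matches overlapped each other in these windows. A match is a description of letters and not a site shown to be bound.

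Genes for known regulators of clotting factors in liver were mostly higher in NP, with Cebpa lower. Stat3 was at 19.2 FPKM (17.6 to 20.7) in Control against 27.4 (25.5 to 29.3) in NP, a ratio of 1.43, and Il6ra, for the interleukin-6 receptor alpha chain, at 13.4 against 16.2 FPKM with overlapping intervals. Cebpb, for a C/EBP factor induced in the acute phase, was at 51.5 (47.0 to 56.1) against 77.7 (72.1 to 83.4) FPKM, a ratio of 1.51. Cebpa, for the C/EBP factor of the resting liver, was lower, at 153 (148 to 158) against 118 (114 to 122) FPKM. Hnf4a, a hepatocyte nuclear receptor, was at 200.1 (192 to 208) against 248 (239 to 257) FPKM, without overlap. It is also counted among the hepatocyte markers above. Stat3 overlaps Stat5a and Cebpb overlaps Tmem189 in the annotation of the files, so reads may be shared there. The part of these regulators in the coagulation values was not tested.

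Among the 7 vitamin K dependent factors, the prothrombin gene was higher in NP, factor IX was lower, and the other 5 had overlapping intervals. F2, which encodes prothrombin, was at 735 FPKM (702 to 768) in Control against 851 (813 to 888) in NP, a ratio of 1.16. F9, for factor IX of the intrinsic pathway, was at 74.1 (69.5 to 78.8) against 64.9 (60.8 to 68.9) FPKM, a ratio of 0.875. The separation of F9 was narrow, and it was the only one of the 21 abundant genes with its NP interval wholly below that of Control. F7, for the factor that tissue factor activates, was at 42.1 (38.5 to 45.6) against 46.0 (42.4 to 49.7) FPKM. F10, for the factor that makes thrombin, was at 187 (178 to 197) against 193 (184 to 203) FPKM. Both had overlapping intervals. Proc, for protein C, which switches off factors V and VIII, was at 306 (290 to 321) against 329 (313 to 346) FPKM. Pros1, for its cofactor protein S, was at 12.3 (10.9 to 13.6) against 11.8 (10.5 to 13.1) FPKM. Proz, for protein Z, which helps to inhibit factor Xa, was at 92.3 (86.8 to 97.9) against 94.96 (89.5 to 100.4) FPKM. Their intervals overlapped as well, and the group's median log2 ratio was 0.044. F7, F10 and Proz are neighbours on chromosome 8 of mm9, within 49.0 kb from 13026034 to 13075006, and their ratios ran from 1.03 to 1.09.

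The enzymes that carry out the vitamin K reaction did not separate. Vkorc1, for the reductase that recycles vitamin K and is blocked by warfarin, was at 296 (277 to 315) FPKM in Control against 335 (315 to 355) in NP, with intervals that just met. Its paralogue Vkorc1l1 was at 10.5 (9.17 to 11.9) against 9.48 (8.27 to 10.7) FPKM. Ggcx, for the carboxylase itself, was at 15.4 (13.8 to 17.1) against 16.3 (14.7 to 17.9) FPKM. On the FPKM scale, which is per length, Vkorc1 stood at 19.2 times the level of Ggcx in Control and 20.6 times in NP.

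Within F10, the rows of single transcripts differed more than the gene did. The main row, a transcript of 1903 nt, was at 99.1 FPKM (92.3 to 106) in Control against 125 (118 to 133) in NP. The row of 2503 nt was at 15.2 (13.1 to 17.3) against 23.5 (21.0 to 26.0) FPKM, and that of 1395 nt at 30.2 (25.8 to 34.5) against 44.4 (39.4 to 49.3). The row of 1449 nt was at 43.0 FPKM (37.8 to 48.2), 22.9% of the gene, in the Control library, while NP had it at 0 with an upper limit of 0.144. The first 3 rows were higher in NP without overlap of their intervals, while the sum moved by a ratio of 1.03. In GENCODE M21 the transcripts differ, among other places, in where the same exon ends, and that junction is shown because it tells the missing row from the others. Coordinates are GRCm38, chromosome 8, plus strand: that exon begins at 13053356 and ends at 13053473 in the rows of 1903 and 2503 nt, 4 bases earlier in the row of 1395 nt and 10 bases earlier in that of 1449 nt. The end of the exon is in lower case and the first bases of the next exon, which begins at 13055293, are in capitals.
F10 transcript of 1903 nt: gattcaaggtgagggtagGTGATCGGAACA
F10 transcript of 1395 nt: aggcgattcaaggtgaggGTGATCGGAACA
F10 transcript of 1449 nt: caggccaggcgattcaagGTGATCGGAACA
The coding parts of the rows of 1395 and 1449 nt have 963 and 957 nt, against 1479 nt in the row of 1903 nt. A row listed at 0 can be a failed estimate, and no fold is given for it.

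The contact system was mixed. F12, for factor XII (Hageman factor), was at 218 FPKM (207 to 230) in Control against 273 (259 to 286) in NP, and its ratio of 1.25 was the highest among the 21 abundant genes. F12 lies on chromosome 13 of mm9 from 55519319 to 55528154, and of its Control value 6.23 FPKM came from a row covering the whole gene, which was at 0 in NP. F11, for factor XI, was at 26.1 (23.6 to 28.5) against 22.5 (20.3 to 24.6) FPKM. Klkb1, for prekallikrein, which factor XII activates and whose gene overlaps Cyp4v3 in the files, was at 77.2 (72.3 to 82.1) against 75.04 (70.4 to 79.7) FPKM. F11 and Klkb1 are neighbours on chromosome 8, both lay somewhat lower in NP, and both had overlapping intervals. Kng1, for kininogen, the cofactor of the system and source of bradykinin, was at 868 (836 to 900) against 945 (912 to 979) FPKM, without overlap. Its separation was lost when the half-widths of its rows were added instead of combined in quadrature, with a Control upper limit of 909.8 and an NP lower limit of 901 FPKM. Its paralogue Kng2 was at 185 (174 to 195) against 199 (188 to 210) FPKM, with overlap. How far the reads of this pair can be exchanged is not known from the files, and the ratio of Kng1 to Kng2 was 4.70 in Control and 4.76 in NP.

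Kng1 makes a long and a short form, of which the long, high molecular weight kininogen carries the part that binds prekallikrein and factor XI. The row with the longer coding part in GENCODE M21, 1983 nt, was at 246 FPKM (233 to 259) in Control against 261 (248 to 275) in NP. The row with the shorter coding part, 1296 nt, was at 622 (593 to 651) against 684 (653 to 715) FPKM. The longer form thus held 28.4% of Kng1 in Control and 27.6% in NP.

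Fgg differed in its rows as well. Its main row, of 1564 nt, was at 1696 FPKM (1623 to 1770) in Control against 1751 (1676 to 1827) in NP, with overlapping intervals and a ratio of 1.03. A row of 1743 nt was listed at 0 with an upper limit of 0.131 in Control, while in NP it held 210.3 FPKM (198 to 223), 10.7% of the gene. The separation of the Fgg intervals therefore rested on that second row. Fga and Fgb each had a single row above 0, so their separation did not. The transcript of the 1743 nt row is absent from GENCODE M21, and its 0 in Control can be a failed estimate.

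**Figure D2:**
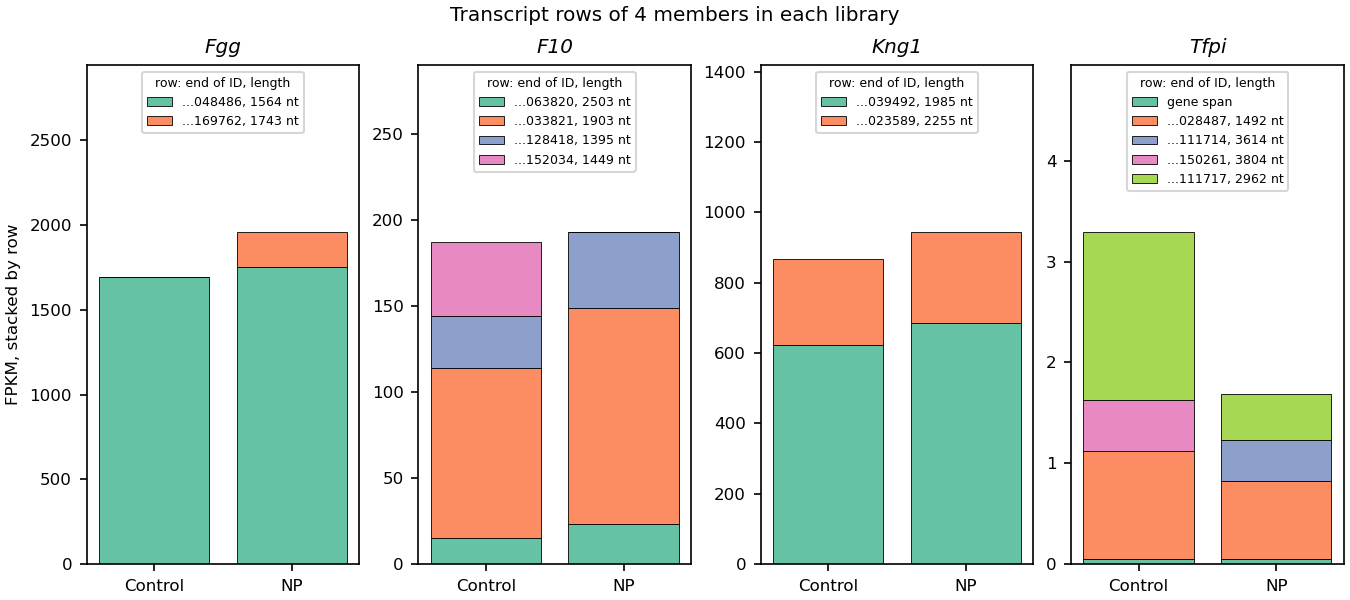
FPKM of Fgg, F10, Kng1 and Tfpi in each library as bars that start at 0, stacked by deposited row, with the end of each transcript identifier and its length in the key. Each of Fgg, F10 and Tfpi has a row listed at 0 in 1 library, and Kng1 keeps the same split.

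Of the cofactors and the starter of clotting, only F5 was abundant, and none separated. F5, for factor V, the cofactor of factor Xa, was at 103 FPKM (98.4 to 108) in Control against 95.5 (91.0 to 100.03) in NP. F3, for tissue factor, was at 1.71 (1.05 to 2.37) against 2.30 (1.58 to 3.02) FPKM. F8, for factor VIII, overlaps Fundc2 and was under the filter, at 0.914 (0.680 to 1.15) against 0.804 (0.597 to 1.01) FPKM. Vwf, for the platelet-binding carrier of factor VIII, was also under it, at 0.414 (0.147 to 0.686) against 0.909 (0.530 to 1.29) FPKM. Of the NP value of Vwf, 72.5% came from a row that GENCODE M21 classes as subject to nonsense-mediated decay, and 67.3% of the Control value.

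Tfpi was the only member past 1.5-fold. It encodes the inhibitor of tissue factor with factor VIIa and of factor Xa, and was at 3.30 FPKM (2.38 to 4.21) in Control against 1.68 (1.04 to 2.33) in NP, 1.96-fold lower. The gene lies on chromosome 2 of mm9 from 84273012 to 84316932. Its value was split over 5 rows: the row of 2962 nt was at 1.67 (1.09 to 2.25) against 0.452 (0.146 to 0.758) FPKM, while that of 1492 nt was at 1.07 against 0.771 FPKM with overlapping intervals. The row of 3804 nt was at 0.505 FPKM in Control alone, and that of 3614 nt at 0.408 FPKM in NP alone, each being listed at 0 in the other library. With the half-widths of the rows added instead of combined in quadrature, the interval of the gene overlapped.

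The other genes of this kind were low. F2r, for the main thrombin receptor (PAR1), was at 3.98 FPKM (3.23 to 4.73) in Control against 3.08 (2.46 to 3.70) in NP. Thbd, for thrombomodulin, which turns thrombin toward protein C, was at 0.204 (0.0497 to 0.358) against 0.564 (0.324 to 0.805) FPKM. Procr, for the endothelial protein C receptor, was at 0.370 (0.0865 to 0.713) against 0.257 (0.0303 to 0.536) FPKM. All of these intervals overlapped, and Thbd and Procr were under the filter. In bulk liver, fewer cells of a type and less RNA per cell cannot be told apart. Of 12 sinusoidal endothelial markers, 11 were lower in NP and 1, Eng, was listed at 0 in both libraries, and their summed level went from 129 to 98.0 FPKM. Intervals were separate with NP lower for 3 of the 11, against 9.58% of all genes kept and 8.78% of those under 50 FPKM, and the NP value lay above Control for 0 of the 11, against 45.6% of all genes kept. Clec4g, a lectin of these cells, was at 44.6 against 30.6 FPKM, and Fcgr2b, an Fc receptor, at 23.4 against 19.6 FPKM. The part of these cells in the values of Tfpi and F2r was not tested. Of the other members made largely by endothelial cells, Thbd and Vwf were higher in NP, and Procr and F8 were lower. All of these were under the filter and had overlapping intervals.

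Plg and Cpb2 were somewhat higher in NP, Hrg had overlapping intervals, and the plasminogen activators were near 0. Plg, for plasminogen, was at 925 FPKM (885 to 965) in Control against 1014 (971 to 1058) in NP, a ratio of 1.10. Cpb2, for the carboxypeptidase TAFI, which protects fibrin from plasmin, was at 102 (95.3 to 110) against 123 (116 to 131) FPKM, a ratio of 1.21. Neither pair of intervals overlapped, by a narrow margin for Plg. Hrg, for histidine-rich glycoprotein, which binds plasminogen, was at 484 (461 to 506) against 504 (480 to 527) FPKM, with overlap. Plat, for tissue plasminogen activator, was at 0.0874 FPKM (0 to 0.239) in the Control library, while NP had it at 0. Plau, for urokinase, was at 0.294 (0.0425 to 0.549) against 0.0840 (0 to 0.230) FPKM, and Plaur, for its receptor, at 0.425 (0.0325 to 0.874) against 0.0742 (0.0133 to 0.271). These 3 were under the filter, and their levels allow no comparison.

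Pzp, for an abundant plasma protease inhibitor of the alpha-2-macroglobulin family, was at 991 FPKM (949 to 1033) in Control against 1130.3 (1083 to 1178) in NP, without overlap. A2m, of the same family, was at 0.00483 against 0.0254 FPKM, which is near 0 in both. Hgfac, for the protease that activates hepatocyte growth factor, was at 28.8 (26.1 to 31.5) against 37.1 (34.1 to 40.0) FPKM, a ratio of 1.29. Its intervals did not overlap, and among the 30 genes kept it had the highest log2 ratio, 0.35, with the pseudocount of 1 FPKM. F3, a low gene with overlapping intervals, stood above it by plain ratio, at 1.35, and with a pseudocount of 0.1 FPKM, at 0.41 against 0.36. Mst1, for macrophage-stimulating protein, a relative of plasminogen without protease activity, was at 106 (99.6 to 112) against 110.3 (104 to 117) FPKM. Habp2, for a protease that can activate factor VII, was at 50.0 (46.2 to 53.7) against 50.7 (47.1 to 54.3) FPKM. Both had overlapping intervals.

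**Figure D3:**
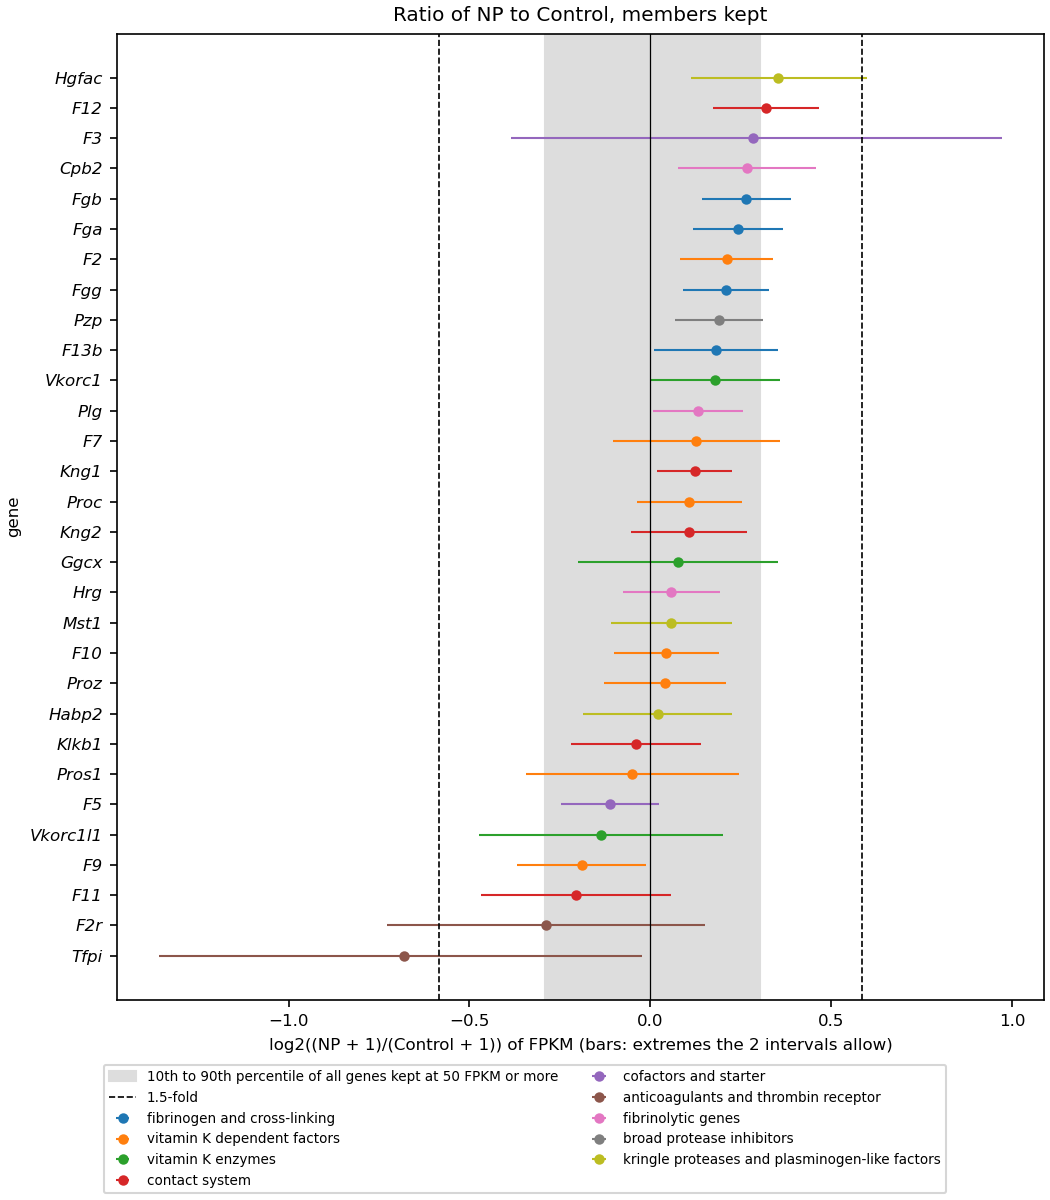
Log2((NP + 1)/(Control + 1)) of FPKM for the 30 genes kept, in order of size and coloured by role group, with bars for the extremes that both 95% intervals allow. The grey band holds the middle of all genes kept at 50 FPKM or more, the dashed lines are 1.5-fold, and only Tfpi lies beyond them.

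Other genes of haemostasis, a list of 23, had 17 above the filter, of which 2 were at least 1.5-fold higher and 1 lower in NP, against 3.60% and 5.33% of all genes kept. Fgl1, for a liver-secreted protein with a fibrinogen-like domain that does not form clots, was at 315 FPKM (294 to 336) in Control against 1013 (970 to 1056) in NP, a ratio of 3.22. Cd36, for a scavenger receptor that binds thrombospondin, was at 2.66 (1.93 to 3.39) against 5.09 (4.14 to 6.04) FPKM. Both had separate intervals. The lower gene was Serpine2, for protease nexin-1, at 5.89 (4.76 to 7.02) against 1.59 (1.03 to 2.15) FPKM. Serpinf2, for antiplasmin, the main plasmin inhibitor, was at 227 (216 to 238) against 315 (300 to 330) FPKM, a ratio of 1.39. Serpinc1, for antithrombin, was at 807 (771 to 842) against 923 (883 to 964) FPKM, without overlap. Antiplasmin and antithrombin thus stood higher in NP, within 1.5-fold. Serping1, for the C1 inhibitor, which also blocks factor XII and kallikrein, was at 469 (446 to 491) against 466 (444 to 488) FPKM. The next lowest ratio after Serpine2 and before Serping1 was that of Adamts13, for the protease that trims von Willebrand factor, at 1.51 against 1.41 FPKM with overlap. The 6 genes under the filter included F2rl2 and F2rl3, listed at 0 in both libraries. Intervals were separate with NP higher for 5 of the 17 and with NP lower for 1, against 7.73% and 9.58% of all genes kept and 19.2% and 14.9% of those at 50 FPKM or more. The median log2 ratio was 0.13, against -0.025 over all genes kept.

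**Figure D4:**
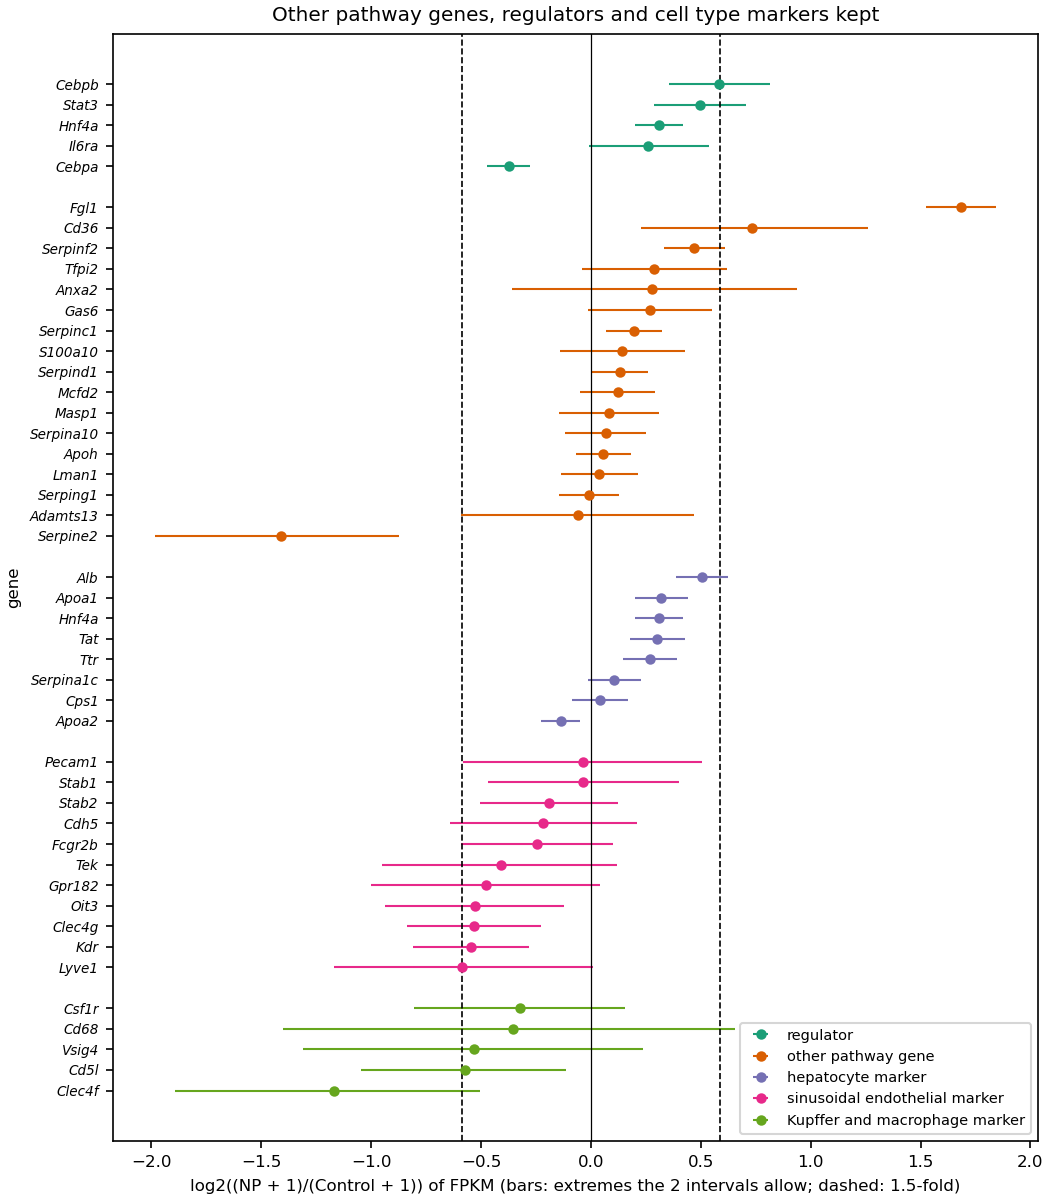
Log2((NP + 1)/(Control + 1)) of FPKM for regulators, other haemostasis genes and markers of 3 cell types that passed the filter, with bars for the extremes that both 95% intervals allow and dashed lines at 1.5-fold. Fgl1 lies far to the right and Serpine2 far to the left, and all sinusoidal endothelial markers lie left of 0.

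Markers of other cells of the liver and blood were mostly lower in NP. Of 7 platelet and megakaryocyte markers, 5 were lower in NP and 2, Gp9 and Treml1, were listed at 0 in both libraries, with a summed level of 5.68 FPKM in Control against 2.06 in NP. Itga2b, an integrin of platelets, was at 2.95 against 0.893 FPKM and Pf4, a platelet chemokine, at 1.46 against 0.910 FPKM. Of 8 Kupffer cell and macrophage markers, 8 were lower in NP, with a summed level of 36.0 and 18.9 FPKM, led by Clec4f at 18.4 against 7.63 FPKM and Cd5l at 8.22 against 5.19 FPKM. Of 8 stellate cell markers, 7 were lower, with a summed level of 93.1 and 76.2 FPKM, led by Dcn at 70.8 against 57.7 FPKM and Reln at 13.8 against 12.02 FPKM. The cholangiocyte list, led by Spp1 at 15.1 against 11.4 FPKM and Sox9 at 1.75 against 2.09 FPKM, had 2 of 5 lower. These counts include markers under the filter, which 2 platelet, 5 Kupffer, 6 stellate and 2 cholangiocyte markers passed. Of those, 2, 5, 5 and 1 were lower in NP, while 45.6% of all genes kept were higher. Intervals were separate with NP lower for 1, 2, 3 and 0, against 9.58% of all genes kept. The part of these cells in the low members (F3, Thbd, Procr, Plau, Plaur) was not tested.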

How the data were processed

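Per the labels' protocols, RNA of frozen liver was taken with Trizol and sequenced from Illumina TruSeq libraries. The submitters' processing notes name TopHat2 2.1.0, Cufflinks 2.2.1.0 and mm9, without role or settings. The deposited tables hold FPKM with a 95% interval and, per the file headers, read coverage, a signal not scaled to library size. Row lengths, also deposited, are other values in nt. Each table has 119289 rows, of which 31633 cover a gene from end to end, with its introns if it has any.

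Rows of the same gene were added up and interval half-widths combined in quadrature, which leaves out their covariance. A row at 0 was given no width. A gene was kept if its mean reached 1 FPKM, its status was OK, its longest transcript had 300 nt or more and its name was no small RNA's. With 1 library per group no test was possible. Members and lists were chosen with earlier results of these data known. Named were all 38 members, the 3 highest and 3 lowest of the other haemostasis genes with 3 fixed ones, 5 regulators and the 2 most abundant markers of each cell type. The results of 2 genes of these lists are not reported here, and the counts leave them out. Of the members, 30 had a RefSeq promoter. Depth in fragments is not given in these sources, so only its ratio between libraries was used. Alternatives covered the pseudocount, the filter, scaling, rows, overlapping genes and interval widths. Python 3.11.15, pandas 2.3.3, numpy 2.4.6 and matplotlib 3.10.9 were used.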

Additional observations from a re-analysis of the deposited data

How the results depend on the processing

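No paired analysis was possible because each group holds 1 library, and no replicate could be left out. The count of members at least 1.5-fold lower, 1 as reported, was 0 with a pseudocount of 5 FPKM, 0 when the mean had to reach 5 FPKM and 0 with a size rule of 2-fold. That member is Tfpi, whose log2 ratio was -0.31 with that pseudocount. The count of members at least 1.5-fold higher was 0 under every alternative run for it. The count with the NP interval wholly below that of Control went from 2 to 1 with half-widths of rows added, which ended the separation of Tfpi, and the count wholly above went from 11 to 10, which ended that of Kng1. With no filter on the mean the median log2 ratio of the fibrinolytic genes was -0.031, against 0.13 as reported, because 3 genes near 0 entered. With the row of the highest mean alone, the log2 ratio of Fgg was 0.046, against 0.21, and that of F10 was 0.34, against 0.044. The median over all members ran from 0.067 to 0.14, and the median of F5 and F3 was -0.11 under the stricter filter, which leaves F5 alone. Scaling NP to a median ratio of 1 multiplied its values by 1.02. Interval counts were not taken again under the scalings, and intervals with narrow gaps or overlaps could change sides there. Such were F9, with a Control lower limit of 69.5 and an NP upper limit of 68.9 FPKM, and Vkorc1, whose intervals just met. Low genes are limited by depth: at 1 to 50 FPKM the members' median half-width was 11.3% in Control and 10.8% in NP.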
